A study of Mus musculus with 3 samples.

Results

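Cell cycle and DNA replication genes were followed in mouse CD4 T cells at 60 hours of culture. The set was a fixed list of 46 genes out of 19938 genes with a value. It was chosen by name and function, with earlier results of these data known. It was divided into D-type cyclins with their kinases (5 genes), cyclin E with the G1/S kinase and transcription factors (8), inhibitors of cyclin-dependent kinases (4), replication genes (13) and mitosis genes (16). The arrays gave a value for 44 of the 46, each as the mean of the probes that name that gene alone. Ccnb1 was named by no probe, and Cdkn1a only by a probe that also names 4930567H12Rik.

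The T cells came from spleens of B6.Cg-Tg(TcraTcrb)425Cbn/J mice, called OT-II, which carry a transgenic T cell receptor for an ovalbumin peptide. Naive cells, sorted as CD4+CD25-CD62LhighCD44low, were activated by that peptide on splenic antigen-presenting cells that had been depleted of T cells and came from Il23a-/- mice. All groups shared this receptor, this stimulus and these antigen-presenting cells. Th0 cells received no cytokine, Th22 cells IL-6 alone and Th17 cells IL-6 with TGFβ, and all were purified by MACS, a magnetic bead method, before RNA was taken. The age of the mice is not given in the sources used here, nor is their number. Each group was 1 single-colour array of 1 RNA sample, so there was no replicate and no test of any difference between conditions, and precision is limited by this number. In bulk RNA, fewer cells of a type and less RNA per cell cannot be told apart.

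A resting T cell leaves quiescence after its receptor is engaged. Growth signals raise Myc and the D-type cyclins, which bind Cdk4 and Cdk6 and begin to inactivate the retinoblastoma protein. E2F factors are then released and drive cyclin E, the nucleotide-synthesis enzymes and the helicase and loading factors that start DNA replication. A later wave, driven by B-Myb and FoxM1, supplies cyclins A and B, Cdk1 and the spindle machinery. The inhibitors p27 (Cdkn1b) and p21 (Cdkn1a) hold cyclin-kinase complexes in check, and the INK4 proteins p18 (Cdkn2c) and p19 (Cdkn2d) bind Cdk4 and Cdk6. Activated T cells lose p27 as they enter the cycle. TGFβ is known as a brake on T cell proliferation.

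The promoters of a few members are shown first because replication and mitosis genes are known to be read through short elements near their starts. Each is the 150 bases before the annotated start, 5′ to 3′ on the gene's strand, from RefSeq on GRCm38.p6. Tyms lies at chr5:30073626-30073775 on the minus strand, Mcm6 at chr1:128359706-128359855 on the minus strand, Cdk1 at chr10:69352913-69353062 on the minus strand and Cdkn1b at chr6:134920251-134920400 on the plus strand. Tyms and Cdkn1b are shown as the members with the largest differences in opposite directions, Mcm6 and Cdk1 as a helicase and a mitotic kinase gene that hold several of the elements. Capitals mark matches on either strand to the E2F element, the CHR element, the CCAAT box or the E-box.
Tyms: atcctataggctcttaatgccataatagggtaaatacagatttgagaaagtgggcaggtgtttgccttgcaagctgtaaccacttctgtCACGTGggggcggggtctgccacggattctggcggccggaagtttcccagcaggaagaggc
Mcm6: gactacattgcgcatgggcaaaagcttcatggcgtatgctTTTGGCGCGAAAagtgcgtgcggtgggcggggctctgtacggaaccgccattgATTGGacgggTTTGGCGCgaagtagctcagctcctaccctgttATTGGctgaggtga
Cdk1: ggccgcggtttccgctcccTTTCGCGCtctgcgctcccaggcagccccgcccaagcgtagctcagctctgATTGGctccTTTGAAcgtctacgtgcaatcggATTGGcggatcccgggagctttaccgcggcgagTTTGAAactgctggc
Cdkn1b: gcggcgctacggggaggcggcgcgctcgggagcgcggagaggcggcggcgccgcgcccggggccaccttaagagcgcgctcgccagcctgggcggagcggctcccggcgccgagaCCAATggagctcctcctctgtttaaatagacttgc

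The elements were counted in the 250 bases before to 50 bases after each start, for the 38 member genes with a promoter in the RefSeq table, which had 44 promoters. The E2F element was searched as TTTCGCGC, TTTGGCGC, TTTCCCGC or TTTGCCGC, and 9 of the 44 held it, against 2.26% of all 32851 promoters of the same length. The genes were Cdc6, Cdk1, Cdk2, E2f2, E2f3, Mcm3, Mcm5, Mcm6 and Mcm7. The CHR element, TTTGAA, is the site through which mitosis genes are known to be held silent outside division. It was in 14 of the 44 and in 17.9% of all promoters, and by role in 9 of 13 mitosis genes, 3 of 6 G1/S genes, 2 of 12 replication genes, 0 of 3 D-type cyclins and kinases and 0 of 4 inhibitors. The CCAAT box, CCAAT, was in 31 of the 44 and in 37.4% of all. The E-box CACGTG, a site for Myc with its partner Max, was in 5 of the 44, those of Cdk4, Cdk6, Cdkn2c, E2f3 and Tyms, and in 7.15% of all. A core of the TGFβ inhibitory element, TTGGCGGGA, was in the Mybl2 promoter alone among members and in 0.268% of all. The palindrome GTCTAGAC, to which Smad proteins bind, was in 0 of the 44 and 0.213% of all. These letter matches do not show that a factor was bound, and the words overlap in part, since a CCAAT box or E2F match can share bases with a longer match.

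Values are on a log scale assumed to be base 2, relative to the median of that probe over the arrays, so that 0 marks the middle array and no level is known. For a gene with several probes the values are means of the probes' values. Differences between arrays are unaffected by this centring. Neither scale nor direction is stated in the sources used here, and larger values were read as more RNA. Repeat measurements existed only as separate probes of the same gene. Over 999 genes 95% of such probe differences lay within 0.36 log2 in the comparison of Th17 with Th22, 0.30 in that of Th22 with Th0 and 0.39 in that of Th17 with Th0. This range covers probe error only and leaves out the spread between cultures. Probes equal on all arrays were not left out of it, and they give a difference of 0. For genes that vary, as nearly all members do, the range may thus be wider. It is used below as a mark only, and a difference beyond it may still be probe error.

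No member differed by 2-fold in any comparison. Over all 19938 genes, 2.61% did so between Th17 and Th22, 0.808% between Th22 and Th0 and 3.03% between Th17 and Th0, so at 44 members a count of 0 is near that background. The pattern lay below that size and in the order of the arrays. Th0 was the highest of the 3 arrays in 33 of 44 members and the lowest in 2, Cdkn1b and Cdkn2d, both of them genes of inhibitors. Over all genes Th0 was the highest in 18.5% and the lowest in 14.2%. Since 37.7% of all genes were exactly equal on the 3 arrays, against 1 member, the share was also taken over the 12431 genes that were not equal, where Th0 was the highest in 29.6%.

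**Figure D1:**
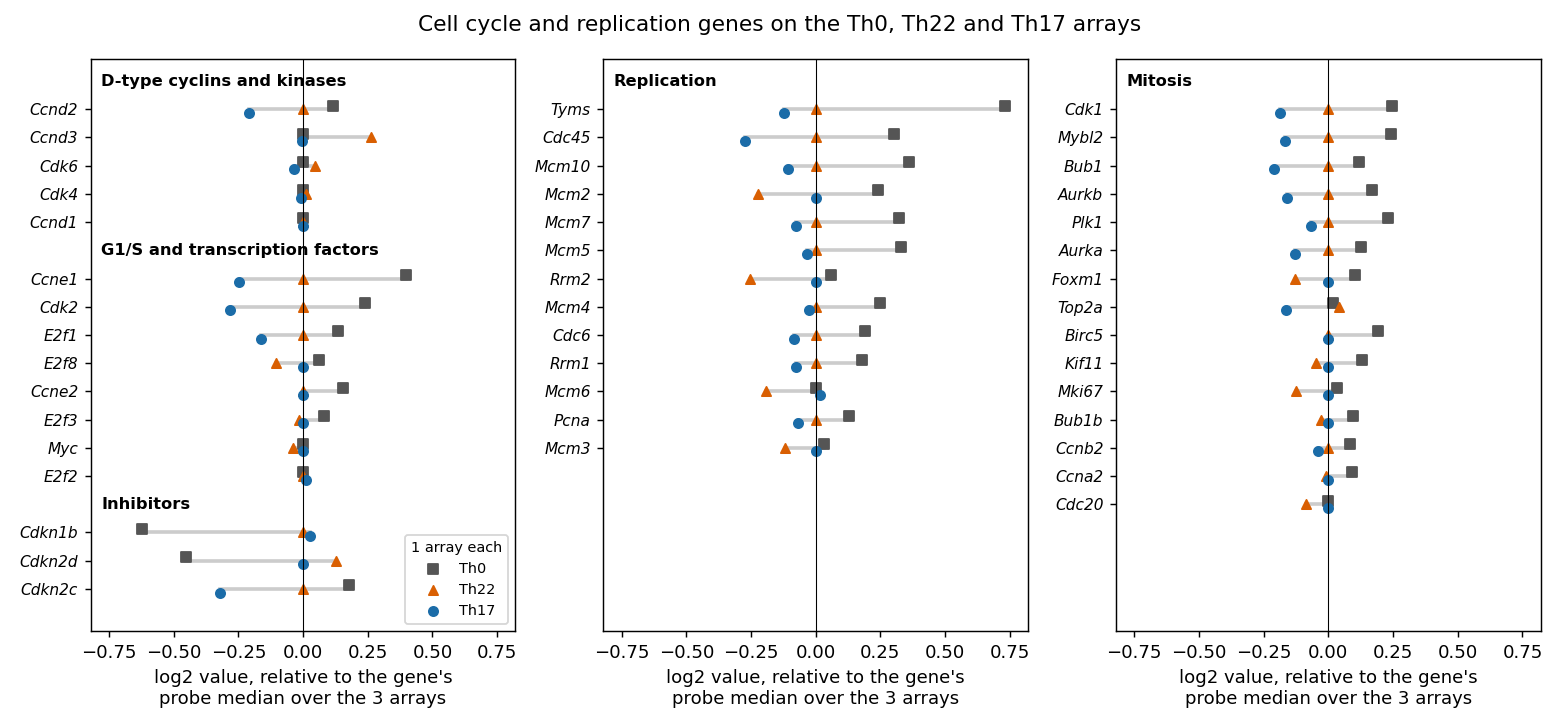
Each row is a member, and the squares, triangles and circles are its log2 values on the Th0, Th22 and Th17 arrays, 1 array each, relative to the median over the arrays. Th0 lies on the right in nearly every replication and mitosis row, with Tyms at 0.73, and on the left in the rows of the inhibitor genes Cdkn1b (-0.62) and Cdkn2d (-0.45).

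By any amount, 36 of 44 members were lower in Th22 than in Th0 and 37 of 44 were lower in Th17 than in Th0. Of all genes 31.2% and 28.1% were lower in these comparisons, or 50.0% and 45.0% of the genes not equal on all arrays. The members' median difference from Th0 was -0.16 log2 in Th22 and -0.19 in Th17, and the median of all genes was 0 in each. Both comparisons use the same Th0 array, so the second count does not repeat the first independently. Th17 against Th22, which does not use it, had 26 members lower, 15 higher and 3 equal, with a median of -0.05 log2. There 26.3% of all genes were lower, or 42.1% of those not equal.

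Few members passed 1.5-fold. For Th22 against Th0 there were 2, Tyms and Cdkn1b, against 2.41% of all genes. For Th17 against Th0 there were 3, Tyms, Ccne1 and Cdkn1b, against 6.32%, and for Th17 against Th22 there were 0, against 5.48%. Beyond the 95% range between probes lay 10 members in Th22 against Th0 (8 lower, 2 higher), 11 in Th17 against Th0 (9 lower, 2 higher) and 0 between Th17 and Th22. The same range was exceeded by 7.67%, 10.3% and 9.97% of all genes. Quantile normalization, which forces equal spread on the arrays, was run on values already centred per probe. After it 3 members lay beyond the range between probes for Th17 against Th22, Mcm2, Mcm6 and Rrm2, all higher in Th17. That range was taken before this normalization. Over all genes it changed the counts past 2-fold from 520 to 399 for Th17 against Th22 and from 161 to 308 for Th22 against Th0. Centred values cannot tell which spread is right. With the probe of largest spread for each gene, Top2a lay beyond the range between Th17 and Th22, at -0.41 log2.

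**Figure D2:**
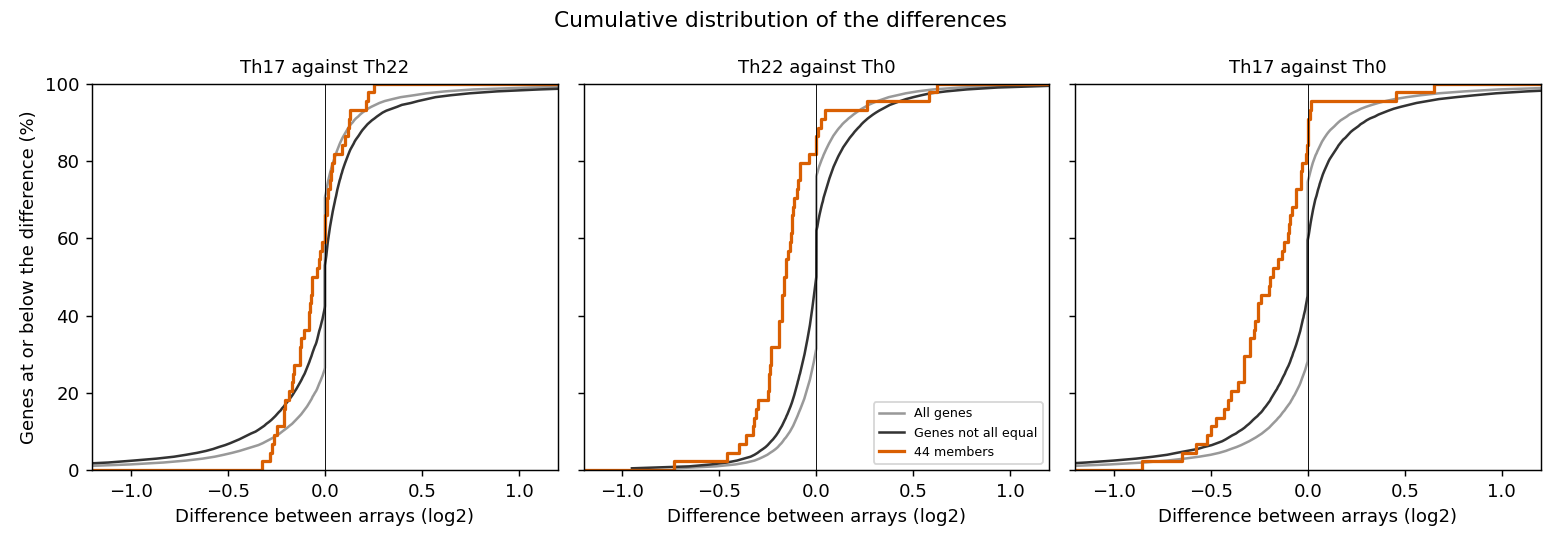
The stepped orange line gives the percentage of the 44 members at or below each log2 difference, and the grey and black lines give the same for all genes and for genes not equal on the 3 arrays, 1 panel per comparison. In the panels against Th0 the members' line lies to the left of 0 for most of its height, with medians of -0.16 and -0.19, and for Th17 against Th22 it stays between -0.32 and 0.25.

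The D-type cyclins and their kinases, which couple growth signals to entry into the cycle, differed little. Cdk4 was 0 in Th0, 0.01 in Th22 and -0.0073 in Th17. Cdk6 was 0, 0.05 and -0.03 in the same order. For both kinases the arrays lay far inside the range between probes. Ccnd2, the gene of cyclin D2, was 0.12 in Th0, 0 in Th22 and -0.21 in Th17, a difference of -0.33 for Th17 against Th0 that was still inside that range. Ccnd3, the gene of cyclin D3, was 0 in Th0, 0.26 in Th22 and -0.0026 in Th17. It was the only member of this group highest in Th22 by more than 0.1 log2. Ccnd1 was listed at 0 on all 3 arrays, which cannot be told from a gene that was not detected. The group's median difference from Th0 was 0.01 log2 in Th22 and -0.0073 in Th17, and from Th22 it was -0.08 in Th17.

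Among the G1/S genes Ccne1, Cdk2 and E2f1 were highest in Th0 and lowest in Th17, while Myc and E2f2 were nearly level. Ccne1, the gene of cyclin E1, was 0.40 in Th0, 0 in Th22 and -0.25 in Th17, so that Th17 was 1.57-fold lower than Th0. Cdk2, the gene of its kinase partner, was 0.24, 0 and -0.28, or 1.43-fold lower in Th17 than in Th0. Both genes stepped down from Th0 to Th22 to Th17, and both differences between Th17 and Th0 were beyond the range between probes. The steps from Th22 to Th17 were inside that range, as was the step of Cdk2 from Th0 to Th22. Ccne2 was 0.15 in Th0 and 0 in Th22 and Th17.

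E2f1, an activator of the G1/S genes, was 0.13 in Th0, 0 in Th22 and -0.16 in Th17. E2f8, a repressor of the same genes, was 0.06, -0.11 and 0. E2f2 was 0 on both the Th0 and the Th22 array and 0.01 on the Th17 array. None of these differences exceeded probe error. One probe of E2f3 was 0 on all arrays and the other was 0.16, -0.03 and 0. Myc, the growth factor-induced regulator, was 0 in Th0, -0.04 in Th22 and 0 in Th17, a spread of 0.04 log2 over the arrays. Such level values of Myc and E2f2 cannot be told from those of undetected genes. The group's median difference from Th0 was -0.14 log2 in Th22 and -0.12 in Th17, and from Th22 it was 0.0051 in Th17.

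The inhibitors did not share a direction. Cdkn1b, the gene of p27, was -0.62 in Th0, 0 in Th22 and 0.03 in Th17. Th0 was thus the low array, and Th22 was 1.54-fold and Th17 1.57-fold higher. Each of its probes gave this order, with values of -0.52, 0 and 0.01 for one and -0.73, 0 and 0.04 for the other. Cdkn2d, the gene of p19, was -0.45 in Th0, 0.13 in Th22 and 0 in Th17, so that Th22 was 0.58 log2 and Th17 0.45 log2 higher than Th0. These 4 differences from Th0 were beyond the range between probes, and they were the only ones above 0.3 log2 towards the cytokine-treated cells among the members.

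Cdkn2c, the gene of p18, ran the other way. It was 0.18 in Th0, 0 in Th22 and -0.32 in Th17, and Th17 was 1.41-fold lower than Th0, beyond the range between probes. It also had the largest difference of any member for Th17 against Th22 (-0.32 log2), which was inside that range. The probe shared by Cdkn1a and 4930567H12Rik was 0 in Th0, 0.23 in Th22 and -0.07 in Th17, and its signal cannot be assigned to Cdkn1a, the gene of p21. The medians of the 3 inhibitors with a value were 0.58 log2 in Th22 and 0.45 in Th17 against Th0, and -0.13 in Th17 against Th22.

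**Figure D3:**
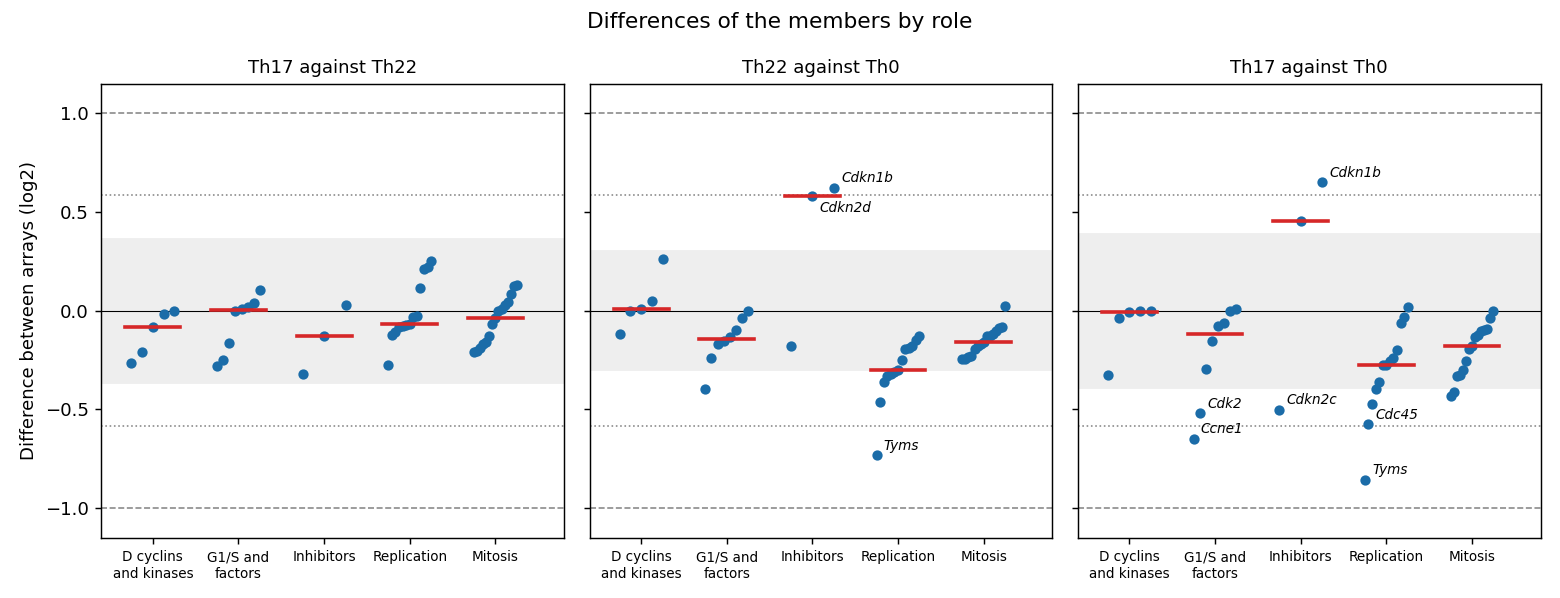
Points are members, grouped by role, at their log2 difference in each comparison, and red bars are group medians. The grey band is the 95% range between probes, and dotted and dashed lines mark 1.5-fold and 2-fold. No point reaches a dashed line, and the replication medians lie at -0.30 (Th22) and -0.27 (Th17) against Th0.

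Replication genes were lower in the cells given IL-6 than in Th0 as a nearly uniform group. For Th22 against Th0 all 13 were lower, by 0.13 to 0.73 log2, and 7 of them by more than the range between probes. For Th17 against Th0 12 of 13 were lower, 4 of them beyond that range, and the medians were -0.30 and -0.27 log2. Of all genes 31.2% and 28.1% were lower in these comparisons, or 50.0% and 45.0% of those not equal on all arrays. Beyond the range in either direction lay 7.67% and 10.3% of all genes. Between Th17 and Th22 the median was -0.07, with 9 lower and 4 higher, against 26.3% of all genes lower. None was beyond the range there, except Mcm2, Mcm6 and Rrm2 after quantile normalization.

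Tyms, which encodes thymidylate synthase, the enzyme that makes the thymidine nucleotide for DNA, had the largest difference of any member. It was 0.73 in Th0, 0 in Th22 and -0.12 in Th17. Th0 stood apart, and Th22 was 1.66-fold and Th17 1.81-fold lower. Its promoter, printed above, held an E-box 61 bases before the start and no E2F element in the words searched. The ribonucleotide reductase genes, which supply the other DNA precursors, were less far apart. Rrm1, the large subunit, was 0.18 in Th0, 0 in Th22 and -0.08 in Th17. Rrm2, the small subunit, was 0.06, -0.25 and 0, so that Th22 was its low array.

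Genes of the MCM helicase, which unwinds DNA at the fork, were split over which cytokine condition was lower. All their differences between Th17 and Th22 were inside the range between probes, except Mcm2 and Mcm6 after quantile normalization. Mcm4 was 0.25 in Th0, 0 in Th22 and -0.03 in Th17, Mcm5 0.33, 0 and -0.03, and Mcm7 0.32, 0 and -0.07. For these 3 the Th22 and Th17 arrays lay within 0.1 log2 of each other, and Th0 was above both. Mcm2 was 0.24 in Th0, -0.22 in Th22 and 0 in Th17. Mcm3 was 0.03, -0.12 and 0, and Mcm6 was 0, -0.19 and 0.02. In Mcm2, Mcm3 and Mcm6 it was Th22 that was lowest, and Mcm6 was the 1 replication gene not highest in Th0. All 6 subunits act in a single ring. The Mcm6 promoter held E2F matches that begin 110, 106 and 47 bases before the start.

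Factors that load or activate the helicase were highest in Th0 and lowest in Th17. Mcm10, which joins the helicase at firing, was 0.36 in Th0, 0 in Th22 and -0.11 in Th17. Cdc45, a subunit of the active helicase, was 0.30, 0 and -0.27, or 1.49-fold lower in Th17 than in Th0, just inside the 1.5-fold line. Cdc6, a loading factor, was 0.19, 0 and -0.08. The 3 genes shared 1 order of arrays, and the steps from Th22 to Th17 were all inside probe error. Pcna, the gene of the sliding clamp of the polymerases, was 0.13, 0 and -0.07, and the pair of probes that name it differed by less than 0.01 log2 on every array.

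Mitosis genes were lower than in Th0 too, but by less. For Th22 against Th0 14 of 15 were lower, with a median of -0.16 log2 and none beyond the range between probes. For Th17 against Th0 14 were lower and 1 was equal, with a median of -0.18, and 2 were beyond it, Cdk1 and Mybl2. Of all genes 31.2% and 28.1% were lower in these comparisons, or 50.0% and 45.0% of those not equal on all arrays. Beyond the range in either direction lay 7.67% and 10.3% of all genes. Cdk1, the mitotic kinase gene, was 0.25 in Th0, 0 in Th22 and -0.19 in Th17, and its promoter held CHR matches 71 and 15 bases before the start. Mybl2, which encodes the factor B-Myb, was 0.24, 0 and -0.17. Both stepped down over the arrays, as Ccne1 and Cdk2 did, though each single step of Cdk1 and Mybl2 was inside the range between probes.

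The other regulators were closer together. Foxm1, the gene of the second driver of the mitotic wave, was 0.10 in Th0, -0.13 in Th22 and 0 in Th17. The cyclin genes Ccna2 (0.09, -0.01 and 0) and Ccnb2 (0.08, 0 and -0.04) were nearly level. Cdc20, which activates the ligase that ends mitosis, was 0 in both Th0 and Th17 and -0.09 in Th22. Mki67, the gene of the proliferation marker Ki-67, was 0.04 in Th0, -0.12 in Th22 and 0 in Th17. All of these lay within the range between probes.

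Genes of the spindle, the checkpoint and the mitotic kinases had Th0 as their high array. The kinase genes Aurka (0.13, 0 and -0.13), Aurkb (0.17, 0 and -0.16) and Plk1 (0.23, 0 and -0.07) had 1 order, Th0 over Th22 over Th17. The checkpoint kinase gene Bub1 was 0.12, 0 and -0.21, and its relative Bub1b was 0.10, -0.03 and 0. Birc5, the gene of survivin, was 0.19 in Th0 and 0 on both other arrays. Kif11, a spindle motor gene, was 0.13, -0.05 and 0.

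Top2a, the gene of the topoisomerase that untangles sister chromosomes, depended on the probe. The probes that name it alone gave differences of -0.04 and -0.33 log2 for Th17 against Th0, and their mean was -0.18. Another 2 probes that name Top2a together with Hibadh gave -0.78 and -0.47, and were left out of its value. For Th17 against Th22, 1 of the 4 probes was equal and the rest were between -0.34 and -0.58.

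Among other genes of the pathway, listed by function, the replication, mitosis and Myc target lists lay mostly on the same side. The G1, Myc network, and arrest and quiescence lists had smaller median differences. Of 47 other replication genes with a value, 42 were lower in Th22 than in Th0 and 44 were lower in Th17 than in Th0. The medians were -0.22 and -0.38 log2. The shares of all genes lower were 31.2% and 28.1%, or 50.0% and 45.0% of those not equal on all arrays. None passed 2-fold in any comparison, and in Th17 against Th0 6 were lower by 1.5-fold or more. Tk1, the thymidine kinase gene, was 1.77-fold lower there, and Orc1, an origin recognition gene named after its value was seen, 1.84-fold. Rfc3, a clamp loader gene, was 0.13 log2 higher in Th22 than in Th0 and -0.59 in Th17 against Th0, while Pole2, a polymerase subunit gene, was -0.13 and -0.61. In Th17 against Th22 the list's median was -0.11, with 34 lower and 5 higher. The share of all genes lower there was 26.3%, or 42.1% of those not equal.

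Of 60 other mitosis genes 55 were lower in Th22 and 49 in Th17 than in Th0, with medians of -0.12 and -0.14 log2. The shares of all genes lower were 31.2% and 28.1%, or 50.0% and 45.0% of those not equal on all arrays. None of the 60 passed 1.5-fold in any comparison. Cdc25b, a phosphatase gene that activates Cdk1, was -0.47 log2 in Th17 against Th0, Racgap1, a cytokinesis gene, 0.38 and Mad1l1, a checkpoint gene, 0.11. Of 16 G1 genes and pocket proteins 11 were lower in Th22 and 10 in Th17 than in Th0, with both medians at -0.07. These counts were nearer to the shares of all genes than those of the mitosis list. Rb1, the retinoblastoma gene, was higher by 0.34 log2 in Th22 and 0.58 in Th17. Its relative Rbl2 was higher by 0.33 and 0.09. The E2F partner gene Tfdp2 was -0.02 in Th22 and 0.23 in Th17 against Th0.

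Myc itself was level on its 1 probe, which cannot be told from a gene that was not detected. The lists around Myc differed. Of 23 genes known as Myc targets 19 were lower than in Th0 in Th22, and 19 in Th17. The medians were -0.21 and -0.14 log2, with 0 past 2-fold. The shares of all genes lower were 31.2% and 28.1%, or 50.0% and 45.0% of those not equal on all arrays. The amino acid transporter gene Slc7a5 was -0.40 in Th22 and -0.15 in Th17 against Th0, the nucleolar gene Nop58 -0.23 and -0.0061, and the transferrin receptor gene Tfrc -0.12 and -0.50. Of 9 genes of the Myc and Max network, Mxd1, which encodes an antagonist that competes with Myc for Max, was the only one past 2-fold. It was -0.80 in Th0, 0 in Th22 and 0.31 in Th17, or 2.15-fold higher in Th17 than in Th0. The list's medians were 0 for Th22 and 0.03 for Th17 against Th0.

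Of 18 arrest and quiescence genes none passed 2-fold, with medians of 0 and -0.04 log2 against Th0 for Th22 and Th17. Foxo1, the gene of a quiescence factor, was 0.0028 higher in Th22 and 0.74 log2 higher in Th17 than in Th0. Gadd45b, a stress-response gene, was -0.92 in Th22 and -0.19 in Th17 against Th0, and Gadd45g was 0.42 and -0.18.

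**Figure D4:**
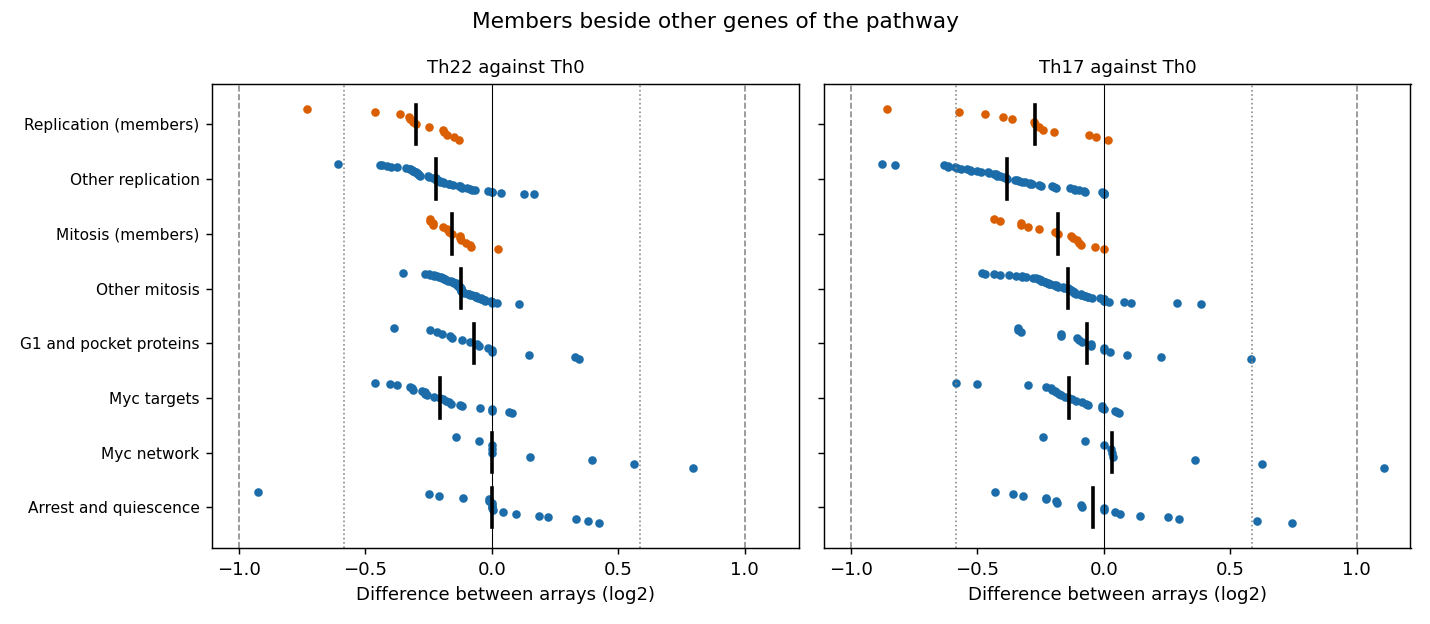
Points are genes at their log2 difference from Th0, for the replication and mitosis members (orange) and the other lists (blue), and black bars are medians. Dotted and dashed lines mark 1.5-fold and 2-fold. Replication lists lie furthest to the left, with medians from -0.22 to -0.38, and Mxd1 is the point past the dashed line at 1.11.

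Markers of cell types were compared beside these genes. All 10 T cell markers with a value were within 2-fold, and 10 were higher in Th22 than in Th0 by some amount (median 0.12 log2), against 23.8% of all genes. For Th17 against Th0 6 were above and 4 below 0 (median 0.01), and Cd4 was -0.38. Between Th17 and Th22 8 of the 10 were lower in Th17, against 26.3% of all genes, with a median of -0.20 log2. Cd3d (-0.59) and Cd4 (-0.55) were beyond the range between probes. Of 9 B cell markers 6 were equal on all arrays, Cd79a, Cd79b and Pax5 among them, and Ebf1 was 1.62 log2 higher in Th22 and -1.05 in Th17 against Th0. Of 14 myeloid and dendritic markers 10 were equal on all arrays and 0 differed by 2-fold. The class II chaperone gene Cd74 was -0.79 in Th22 and -1.98 in Th17 against Th0, and was the 1 of 5 class II genes past 2-fold against Th0. The class II genes did not share a direction in Th22, since H2-Ab1 was 0.68 in Th22 and -0.31 in Th17 against Th0. H2-Aa (-0.05 and -0.12) and H2-Eb1 (-0.04 and -0.20) differed less, and Ciita was equal on all arrays. Of 6 CD8 T and NK cell markers 3 were equal on all arrays, and Cd8b1 was -0.25 and -1.38. Summed marker levels cannot be had from centred values, and the part of other cells in the differences above was not tested.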

How the data were processed

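RNA from 1 sample each of Th0, Th22 and Th17 cells, grouped by the subset in the labels, was measured on biotin-labelled Affymetrix arrays, per the labels' protocols. The deposited table gives 28853 probes as values taken to be log2. The median over the arrays is 0 for all 28853, so each probe was centred before deposit, and the median of every column is 0. Which software, normalization, log base and direction were used is not given in the sources used here.

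Gene names came from GEO's annotation of the platform. They were brought up to date through Entrez identifiers in a RefSeq gene table (GRCm38.p6), which matched 21698 of 21789 probes with 1 symbol. Another 1621 had several symbols and 5443 were not listed. Probes of a gene were averaged with pandas 2.3.3, which gave 19938 genes, with no filter. No test was run on single arrays, and differences were counted at 2-fold and at 1.5-fold. The marking of differences beyond the 95% range between probes was added after seeing the data, as were the shares over genes not equal on all arrays. The counting code was run on simulated noise with planted differences. That noise lacked the centring and the equal values of the real data, so the accuracy of the counts here was not tested. All 46 members were named, and of other lists the genes past 2-fold or, where none was, the 3 with the largest difference for Th17 against Th22. Of the marker lists those past 2-fold were named. Cd3d, Cd4, Cd79a, Cd79b, Pax5, H2-Ab1, H2-Aa, H2-Eb1 and Ciita were added after their values were seen. Members and lists were chosen with earlier results of these data known. Of 5 listed erythroid markers 2 had a value, and both were equal on all arrays.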

Additional observations from a re-analysis of the deposited data

How the results depend on the processing

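No member passed 2-fold for Th17 against Th22 under any alternative run. For Th22 against Th0 the count went from 0 to 2 at 1.5-fold, 1 with values taken as natural logs and 10 beyond the 95% range between probes. For Th17 against Th0 it went to 3, 1 and 11 in the same order, and to 1 after quantile normalization, where Tyms was lower by 1.07 log2. Counting probes with several symbols, which adds the shared Cdkn1a probe, brought the inhibitors' median difference from Th0 to 0.40 log2 in Th22 and 0.19 in Th17. The other 88 of 90 recomputed role-group medians moved by less than 1 SD of the difference between probes. This is a weak check, since that SD was 0.14 to 0.19 log2, near the size of the mitosis and G1/S medians against Th0. Several runs could also hardly move a median. They changed few members or, with centring on the probes that differ, shifted each by at most 0.0123 log2. In Th22 against Th0 quantile normalization brought the replication median from -0.30 to -0.41 and the mitosis median from -0.16 to -0.17. Quantile normalization gave larger differences for Mcm2 (0.51), Mcm6 (0.42) and Rrm2 (0.62) in Th17 against Th22, and in Th22 against Th0 for Mcm2 (-0.79), Mcm6 (-0.41), Rrm2 (-0.67) and Tyms (-0.99). The range between probes was taken before this normalization. Beyond that range there were then 3 members between Th17 and Th22, and 12 each for Th22 and Th17 against Th0. With quantile normalization 36 and 37 members were still lower in Th22 and Th17 than in Th0. Mxd1 was between 1.06 and 1.11 log2 for Th17 against Th0 under all of them. For members the median of probes equals the mean, since none has over 2. No paired analysis was possible because each group has 1 array. Signal over background is unknown, so members equal on several arrays cannot be told from undetected ones.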
